A study of Rattus norvegicus with 36 samples.

Results

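Arginine is the shared substrate of the nitric oxide (NO) synthases and the arginases. The synthases turn it into citrulline and NO, and the arginases split it into ornithine and urea. Citrulline can be rebuilt into arginine by argininosuccinate synthase and argininosuccinate lyase, ornithine is the entry point to the polyamines and to proline, and cationic amino acid transporters of the Slc7 family bring arginine into the cell. In inflamed lung, activated macrophages are known for inducible NO synthase and for arginase, and blood vessel endothelium for endothelial NO synthase. The expression of 9 genes of this network was followed in rat lung after exposure to crystalline silica. They were taken by gene name: the NO synthases Nos2 and Nos3, the arginases Arg1 and Arg2, the arginine-rebuilding enzymes Ass1 and Asl, ornithine decarboxylase Odc1, and the arginine transporters Slc7a1 and Slc7a2. All 9 were among the 23721 genes tested, and 13 of the 36146 probes with a gene name belonged to them.

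The rats were female Sprague Dawley, 13 weeks old when they were instilled. The exposed rats received 10 mg of DQ-12 quartz, a reference crystalline silica dust, per rat in saline through the trachea, and the vehicle rats received saline alone. The accessory lobe was taken 1, 30, or 180 days later (D1, D30, D180), with 6 rats per group and a single-color Agilent array for each rat, 36 arrays in all. Both arms therefore share the instillation and the ageing of the animals, and the dust was given at a single dose.

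Values below are log2 normalized signals unless stated otherwise, and a change is the mean of the DQ-12 rats minus that of the vehicle rats on that scale. A gene was called a DEG at an adjusted p under 0.05 in limma (all 36 arrays, Benjamini–Hochberg adjustment over all genes at each day) and a fold change (FC) of 2 or more. Where p is given as exact, it is a 2-sided exact permutation test over the 924 ways to split 12 rats into 6 and 6, whose smallest possible p is 0.00216. Signals of single genes were not set against each other, since they depend on the probe. For lists of marker genes, linear signals were summed in each rat, and the brightest probes weigh most in such a sum. For a gene with a pair of probes, the one with the brighter signal was used, and the other is called the second probe.

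The share of spots well above background ran from 61.0 to 80.6% over the arrays. Lung markers were strong in all groups (summed linear signal of 6 alveolar type 2 genes 639127 to 802034), and that of 4 liver genes, given since Arg1 is also a liver enzyme, was 22.8 to 316, with the highest value in a vehicle rat of D180. DEGs numbered 739, 251, and 871 at D1, D30, and D180, or 3.12, 1.06, and 3.67% of all genes. At D1 they were 485 higher and 254 lower, but 337 higher and 582 lower when the arrays were scaled by their 75th percentile instead. At D1 the vehicle array of replicate 3 alone shared a scan date with the DQ-12 arrays, so that scan date and exposure can hardly be told apart at that day. D30 and D180 had scan dates with both arms, but these were uneven. At D30, 1 scan date held 4 vehicle and 1 DQ-12 rat, and the other held 2 and 5. At D180, some rats of each arm were scanned on dates without the other arm.

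Sequences are shown for 5 of the 13 probes, as they were spotted, because the statements on Nos2, Nos3, and Ass1 rest on them and because they are the additional probes by which Odc1 and Slc7a1 were checked. Positions are those of the array design on rat build rn4: Nos2 chr10:65070156-65070215 on the plus strand, Nos3 chr4:6159286-6159345 on the minus strand, Ass1 chr3:10620727-10622079, Odc1 chr6:41313685-41313744, and Slc7a1 chr12:7247219-7247791, the last 3 on the plus strand. The Ass1 and Slc7a1 probes are 60 bases long but span 1353 and 573 bases of the genome, so they cross at least 1 intron.
Nos2, A_44_P1364598: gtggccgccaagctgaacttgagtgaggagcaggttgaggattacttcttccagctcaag
Nos3, A_44_P198620: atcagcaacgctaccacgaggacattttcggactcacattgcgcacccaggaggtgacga
Ass1, A_44_P447373: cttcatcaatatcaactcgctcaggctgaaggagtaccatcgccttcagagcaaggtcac
Odc1, A_44_P202988: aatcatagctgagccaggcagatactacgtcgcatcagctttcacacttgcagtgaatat
Slc7a1, A_44_P543258: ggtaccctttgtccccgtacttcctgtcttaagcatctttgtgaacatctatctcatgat
The other probes were A_42_P758222 (Arg1), A_44_P296180 (Arg2), A_64_P086689 (Asl), A_44_P1081944 (the second of Nos2), A_43_P14163 and A_44_P474101 (those used for Odc1 and Slc7a1), and A_44_P313679 and A_64_P065736 (Slc7a2). A probe of this length reads a single stretch of the transcript, and it does not tell apart isoforms that share it.

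**Figure D1:**
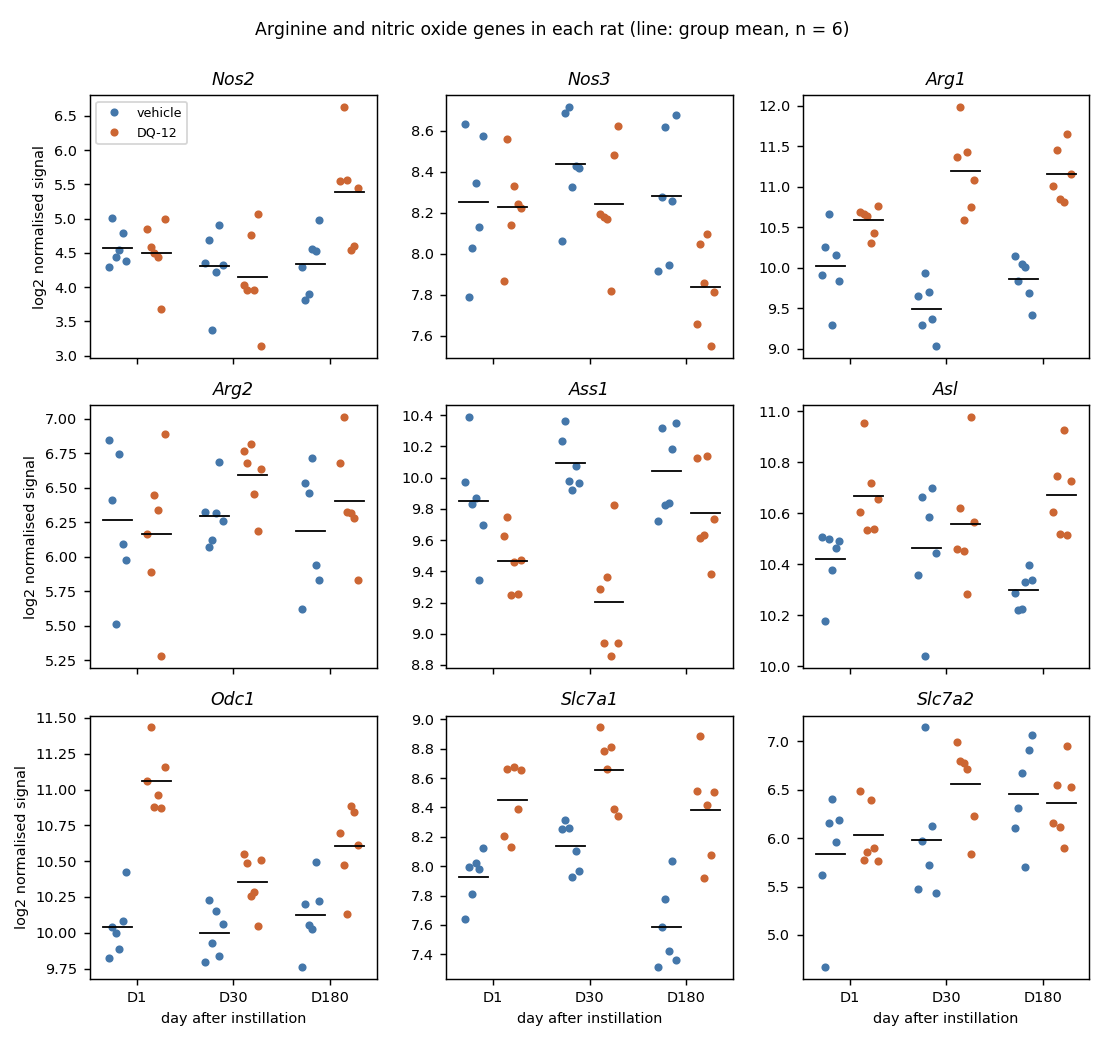
Log2 normalized signal (vertical axis, a scale of its own for each gene) of the 9 genes in each rat by day after instillation, with vehicle rats in blue, DQ-12 rats in orange, and the mean of the 6 rats of a group as a line. The orange points lie above all blue points for Arg1 at D30 and D180, Odc1 at D1, Asl at D1 and D180, and Slc7a1 at D1 and D30, and below them for Ass1 at D30. Of all genes, 5.27, 1.83, and 3.85% lay apart in the higher direction at D1, D30, and D180. In the lower direction, 0.561% lay apart at D30.

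Across the 9 genes, 1 was a DEG at D1 (Odc1), 1 at D30 (Arg1), and 2 at D180 (Arg1 and Nos2), and all rose. This stands beside 2.04, 0.923, and 2.89% of all genes that were DEGs with a rise at these days, and 3.12, 1.06, and 3.67% in either direction. Without the fold threshold, 2 rose at D1 (Odc1 and Slc7a1), 2 rose and 1 fell at D30 (Arg1 and Slc7a1, and Ass1, respectively), and 5 rose and 1 fell at D180 (Nos2, Arg1, Asl, Odc1, and Slc7a1, and Nos3, respectively). Of all genes, 7.69, 2.78, and 7.94% rose and 8.76, 1.27, and 9.11% fell by the adjusted p alone at D1, D30, and D180. The median change of the 9 genes was 0.20, 0.29, and 0.37, and that of all genes was -0.01, -0.02, and -0.03. Arg2 and Slc7a2 passed the adjusted p at no day.

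**Figure D2:**
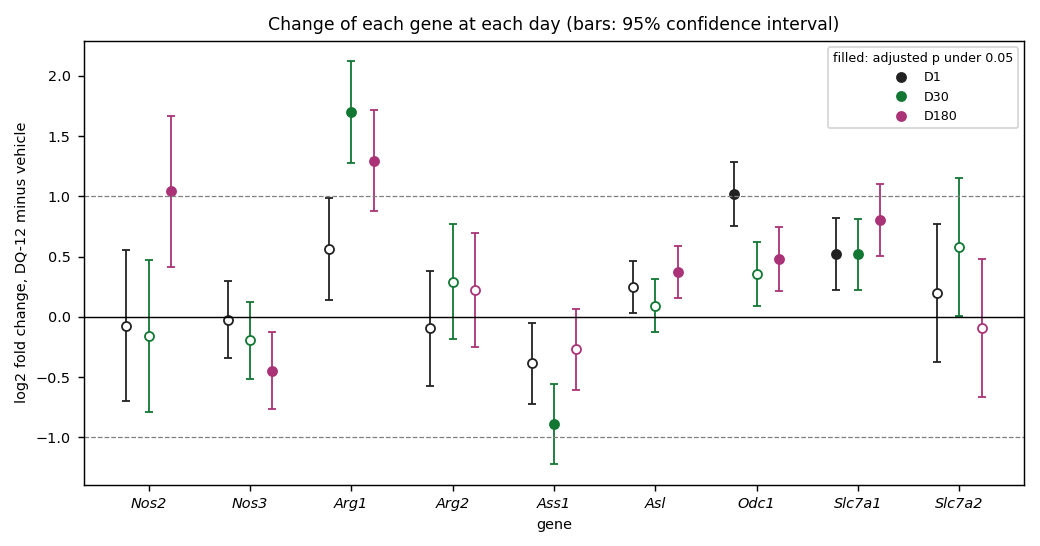
Change of each gene (log2 fold change of DQ-12 over vehicle rats, n = 6 against 6) at D1, D30, and D180, with its 95% confidence interval as a bar; filled points have an adjusted p under 0.05 and the dashed lines mark an FC of 2. Arg1 at D30 (1.70) is the highest point and Ass1 at D30 (-0.89) the lowest.

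Arg1, the cytosolic arginase that splits arginine into ornithine and urea, showed the largest rise of the 9 genes, and it was sustained. At D30 its signal was 9.03 to 9.93 (median 9.51) in vehicle lungs and 10.59 to 11.98 (median 11.23) in DQ-12 lungs. At D180 it was 9.42 to 10.15 (median 9.92) and 10.82 to 11.65 (median 11.08), respectively. At both days each DQ-12 rat exceeded every vehicle rat, which was seen in the higher direction for 1.83% of all genes at D30 and 3.85% at D180. The change was 1.70 ± 0.21 (SE) at D30, an FC of 3.26 (adjusted p = 1.42e-06, exact p = 0.00216), and 1.30 ± 0.21 at D180, an FC of 2.46 (adjusted p = 2.15e-05, exact p = 0.00216).

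At D1, Arg1 stood at 9.29 to 10.67 (median 10.04) in vehicle lungs and at 10.31 to 10.76 (median 10.66) in DQ-12 lungs, and only 3 of 6 DQ-12 rats were above every vehicle rat. The change of 0.56 was at the edge of the threshold and did not pass (adjusted p = 0.0592), whereas it passed with normexp background correction (0.55, adjusted p = 0.0478), with the filter on probes well above background (0.56, adjusted p = 0.0409), and with trend and robust moderation (0.56, adjusted p = 0.0435). The highest vehicle rat was replicate 3, the one scanned with the DQ-12 arrays. Against that rat the change was -0.08, and with scan date as a block it was also -0.08 (adjusted p = 0.970), whereas without it the change was 0.69 (adjusted p = 0.0189). The change of Arg1 was larger at D30 than at D1 by 1.14 (interaction, adjusted p = 0.0292), which 0.953% of all genes passed with a difference of at least 1 on the log2 scale. This call was lost with scan date as a fixed block (1.54, adjusted p = 0.211). For the other days and genes, no difference was called, beside 0.139% of all genes between D30 and D180 and 1.6% between D1 and D180.

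Within the scan dates that held both arms, the change of Arg1 was 1.42 (4 vehicle against 1 DQ-12 rat) and 1.47 (2 against 5) at D30, and 1.04 (3 against 3) and 1.81 (1 against 1) at D180. As fixed blocks, scan date gave 1.45 at D30 (adjusted p = 0.000285) and 1.23 at D180 (adjusted p = 0.000489). Slide gave 1.45 at D30 (adjusted p = 0.00378), but at D180, where a single slide with 1 rat of each arm carries the estimate, 0.995 with an adjusted p of 0.427.

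Some macrophage and neutrophil markers were also higher at D30 and D180. The median change at D1, D30, and D180 was 0.14, 1.16, and 1.52 for 7 macrophage markers. It was 0.41, 0.77, and 1.33 for 6 neutrophil markers, and the change of Arg1 was 0.56, 1.70, and 1.30. Of the 7 macrophage markers, 4 were DEGs at D30 and at D180 (Cd68, Marco, Msr1, and Siglec1) and none at D1. Of all genes, 3.12, 1.06, and 3.67% were DEGs at D1, D30, and D180. At D1, Msr1 and Siglec1 passed the adjusted p without the fold (0.90 and 0.79, adjusted p = 0.000205 and 0.0227). The summed linear signal of the 7 at D30 was 3935 to 5126 in vehicle rats and 7987 to 11527 in DQ-12 rats. At D180 it was 5741 to 9294 and 14687 to 24244, respectively. Marco was well above background on no vehicle array of D30. Cd163, another macrophage marker, fell at D180 by 0.89 (adjusted p = 0.00190). Mrc1 and Adgre1, also of the 7, passed the adjusted p at no day. Of 6 neutrophil markers, 1 was a DEG at D1, 2 at D30, and 4 at D180, and their summed signal at D180 was 8203 to 15871 in vehicle rats and 46779 to 67361 in DQ-12 rats. Of 4 mast cell markers, 3 were higher at D180 by the adjusted p (Cma1, Cpa3, and Tpsab1), beside 7.94% of all genes, and none at D1 or D30. None of 5 lymphocyte markers passed at any day, with median changes of -0.29, -0.31, and 0.04 at D1, D30, and D180. The part of these markers in the rise of Arg1 was not tested. In bulk lung tissue, more cells of a type and more RNA per cell cannot be told apart.

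Arg2, the mitochondrial arginase, passed the adjusted p at no day. Its signal in DQ-12 rats was 5.28 to 6.89 at D1 (median 6.25), 6.19 to 6.82 at D30 (median 6.66), and 5.83 to 7.01 at D180 (median 6.32), against 5.51 to 6.85 (median 6.25), 6.07 to 6.69 (median 6.29), and 5.62 to 6.72 (median 6.20) in vehicle rats. The groups overlapped throughout. The 95% intervals of its change were -0.57 to 0.38, -0.18 to 0.77, and -0.25 to 0.70, so a change the size of that of Arg1 at D30 lies outside them at all 3 days.

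Nos2, the inducible NO synthase of activated macrophages, was dim and rose only at D180 among the 3 days. At D180 it was 3.80 to 4.98 (median 4.41) in vehicle lungs and 4.54 to 6.62 (median 5.49) in DQ-12 lungs. In all, 4 of 6 DQ-12 rats exceeded every vehicle rat and the other 2 among them. The probe was well above background in 2 of 6 vehicle rats and 5 of 6 DQ-12 rats. The change was 1.04 ± 0.31, an FC of 2.06 (adjusted p = 0.0159, exact p = 0.0152).

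At D1 and D30, Nos2 changed by -0.07 and -0.16 (adjusted p = 0.914 and 0.906), and the groups overlapped. The rise at D180 exceeded the change at D30 by 1.20, but this difference did not pass over all genes (interaction, adjusted p = 0.255). The Nos2 call at D180 was sensitive to single rats and to scaling. Without DQ-12 replicate 2, the highest rat, the change was 0.79 (adjusted p = 0.0705). Without vehicle replicate 2 or 3 it was 0.93 or 0.95, under the fold threshold. With arrays scaled by the 75th percentile it was 0.91 (adjusted p = 0.0671). With normexp background correction it was 0.36, far under the fold threshold (adjusted p = 0.00414). Within scan dates it was 1.66 (3 rats against 3) and 0.79 (1 against 1), and it was 1.44 with scan date as a fixed block (adjusted p = 0.00211) and 0.99 with slide (adjusted p = 0.557).

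The second, dimmer Nos2 probe, A_44_P1081944, moved the same way at D180. There it ran from 2.61 to 4.14 (median 3.31) in vehicle lungs and from 3.97 to 6.21 (median 4.89) in DQ-12 lungs, with 5 of 6 DQ-12 rats above every vehicle rat. It was well above background in 1 vehicle rat and 4 DQ-12 rats, and its change was 1.61 ± 0.32 (adjusted p = 0.000565 over all probes). The macrophage and neutrophil markers that were high beside Arg1 were also high beside Nos2 at D180. At D30, 4 of 7 macrophage and 2 of 6 neutrophil markers were DEGs. The brighter Nos2 probe changed by -0.16 ± 0.31 (SE) at that day and was well above background in 3 of 6 rats of each arm. Its difference between D30 and D180 did not pass (interaction, adjusted p = 0.255). The part of these markers in the rise of Nos2 was not tested.

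Nos3, the endothelial NO synthase that keeps vessels dilated, was unlike Nos2 in its direction. Its signal at D180 was 7.91 to 8.68 (median 8.27) in vehicle lungs and 7.55 to 8.10 (median 7.83) in DQ-12 lungs, with 4 of 6 DQ-12 rats below every vehicle rat. The fall of 0.45 (FC of 0.73) was at the edge of the threshold (adjusted p = 0.0480, exact p = 0.0216). It no longer passed without vehicle replicate 2, 3, 5, or 6 or DQ-12 replicate 1, 3, 5, or 6 of D180 (changes of -0.45 to -0.37, adjusted p = 0.0623 to 0.132). Within scan dates the change was -0.31 (3 rats against 3) and -0.73 (1 against 1), and with scan date as a fixed block it was -0.41 (adjusted p = 0.174). At D1 and D30 the changes were -0.02 and -0.19 (adjusted p = 0.949 and 0.634), and the groups overlapped.

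Most endothelial markers were also lower at D180. Of 8 such markers, 7 fell at D180 by the adjusted p (all but Tie1), against 1 at D30 and 0 at D1. Of all genes, 9.11, 1.27, and 8.76% fell by the adjusted p at D180, D30, and D1. The median change of the 8 markers was -0.27, -0.29, and -0.53 at D1, D30, and D180. Their summed linear signal at D180 was 135185 to 151794 in vehicle rats and 75912 to 124003 in DQ-12 rats. Markers of other cells were lower at that day too, by the adjusted p. These were all 4 alveolar type 1 markers, with a median change of -0.45, and 3 of 5 smooth muscle and fibroblast markers, with a median of -0.62. Both counts also stand beside 9.11% of all genes. The part of these markers in the fall of Nos3 was not tested.

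Ass1, which joins citrulline and aspartate and so starts the rebuilding of arginine, was lower in DQ-12 rats at D30. Its signal was 9.92 to 10.37 (median 10.03) in vehicle lungs and 8.85 to 9.82 (median 9.12) in DQ-12 lungs, and all 6 DQ-12 rats were below every vehicle rat, as in the lower direction for 0.561% of all genes. The change was -0.89 ± 0.16, an FC of 0.54 (adjusted p = 0.000773, exact p = 0.00216), short of an FC of 2. It reached -1.01 without DQ-12 replicate 5 of D30, which made it a DEG. That rat was the only DQ-12 rat of D30 that shared its scan date with 4 of the vehicle rats.

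At D1, Ass1 stood at 9.35 to 10.39 (median 9.85) in vehicle lungs and 9.25 to 9.75 (median 9.47) in DQ-12 lungs, a change of -0.38 (adjusted p = 0.111) that became -0.48 without vehicle replicate 5 (adjusted p = 0.0462). At D180 the change was -0.27 (adjusted p = 0.308), with 9.72 to 10.35 (median 10.01) in vehicle lungs and 9.39 to 10.14 (median 9.69) in DQ-12 lungs. The DQ-12 rats overlapped the vehicle rats at both days. The difference between D30 and D180 was 0.62 (interaction, adjusted p = 0.270). Within the scan dates of D30 the change was -0.34 (4 vehicle against 1 DQ-12 rat) and -0.87 (2 against 5), and with scan date as a fixed block it was -0.68 (adjusted p = 0.0366).

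Asl, which releases arginine from argininosuccinate and is the next enzyme after Ass1, rose at D180 by a small amount. At D180 it was 10.22 to 10.40 (median 10.31) in vehicle lungs and 10.52 to 10.92 (median 10.66) in DQ-12 lungs. All 6 DQ-12 rats were above every vehicle rat, as in the higher direction for 3.85% of all genes. The change was 0.37 ± 0.11 (FC of 1.29, adjusted p = 0.0124, exact p = 0.00216). At D1 the groups were also apart, 10.18 to 10.51 (median 10.48) against 10.53 to 10.95 (median 10.63), as for 5.27% of all genes with a rise at that day, yet the change of 0.25 did not pass over all genes (adjusted p = 0.112, exact p = 0.00216).

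At D30 the Asl groups overlapped, with a change of 0.09 (95% interval -0.12 to 0.31, adjusted p = 0.778). At D180 the change within scan dates was 0.34 (3 rats against 3) and 0.29 (1 against 1). With scan date as a fixed block it was 0.33 and did not pass (adjusted p = 0.0525).

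Odc1, ornithine decarboxylase, the first and rate-limiting enzyme of polyamine synthesis, was the only one of the 9 genes that was a DEG at D1. Its signal was 9.82 to 10.43 (median 10.02) in vehicle lungs and 10.87 to 11.43 (median 11.01) in DQ-12 lungs. All 6 DQ-12 rats were above every vehicle rat, as in the higher direction for 5.27% of all genes. The change was 1.02 ± 0.13, an FC of 2.02 (adjusted p = 1.00e-06, exact p = 0.00216). Against the vehicle rat of the same scan date it was 1.06, and with scan date as a fixed block also 1.06 (adjusted p = 0.0153). Both rest on that 1 vehicle rat, which is assumed to vary like the rats of the other groups.

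At D30 and D180 the changes of Odc1 were 0.36 (adjusted p = 0.130) and 0.48 (adjusted p = 0.00813), so it also rose at D180, under an FC of 2. At D30 it ran from 9.79 to 10.23 (median 9.99) in vehicle lungs and from 10.05 to 10.55 (median 10.39) in DQ-12 lungs, and at D180 from 9.76 to 10.49 (median 10.13) and from 10.13 to 10.89 (median 10.65). In DQ-12 rats 5 of 6 at D30 and 4 of 6 at D180 were above every vehicle rat. The difference between D1 and D30 was -0.66 and narrowly missed the threshold (interaction, adjusted p = 0.0501). That between D1 and D180 was -0.54 (adjusted p = 0.0903).

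The second Odc1 probe gave the same picture at D1, with 9.55 to 10.40 (median 9.85) in vehicle lungs and 10.71 to 11.48 (median 10.85) in DQ-12 lungs and a change of about the same size (FC of 2.14, adjusted p = 1.83e-06 over all probes). Its changes at D30 and D180 were 0.10 and 0.39 (adjusted p = 0.890 and 0.0734 over all probes). Because the FC at D1 is near 2, it fell under the fold threshold, though not over the adjusted p, when vehicle replicate 1 or 4 or DQ-12 replicate 2 or 6 of D1 was left out (changes of 0.973, 0.986, 0.942, and 0.998).

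Slc7a1, the widely expressed cationic amino acid transporter, was higher in DQ-12 rats at all 3 days, under an FC of 2 each time. In vehicle rats it was 7.64 to 8.12 (median 7.99) at D1, 7.93 to 8.31 (median 8.18) at D30, and 7.32 to 8.04 (median 7.50) at D180. In DQ-12 rats it was 8.13 to 8.68 (median 8.52), 8.34 to 8.95 (median 8.72), and 7.92 to 8.89 (median 8.46). All 6 DQ-12 rats were above every vehicle rat at D1 and D30, and 5 of 6 at D180. Groups apart in the higher direction were seen for 5.27% of all genes at D1 and 1.83% at D30.

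The changes of Slc7a1 were 0.52, 0.52, and 0.80, each ± 0.15 (adjusted p = 0.0118, 0.0361, and 0.000119), an FC of 1.44, 1.43, and 1.75. No difference between days passed (interactions, adjusted p = 0.488 to 0.993). At D30 it no longer passed without vehicle replicate 1, 4, 5, or 6 or DQ-12 replicate 1, 2, 3, or 4 (changes of 0.46 to 0.54, adjusted p = 0.0519 to 0.117). Within scan dates the change of Slc7a1 was 0.64 at D1 (1 vehicle against 6 DQ-12 rats), 0.23 and 0.61 at D30, and 0.94 and 0.49 at D180. With scan date as a fixed block it passed at D180 (0.82, adjusted p = 0.00284) but not at D1 (0.64, adjusted p = 0.330) or D30 (0.48, adjusted p = 0.205). The second Slc7a1 probe, which crosses an intron and was dimmer, had changes of 0.91, -0.28, and 0.41 (adjusted p = 0.0852, 0.856, and 0.531 over all probes), so it went the other way at D30. The median of both probes changed by 0.12 at that day (adjusted p = 0.842).

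Slc7a2, a cationic amino acid transporter that activated macrophages are known to use, passed at no day. Its signal was 4.67 to 6.41 (median 6.06) at D1, 5.43 to 7.14 (median 5.84) at D30, and 5.70 to 7.06 (median 6.49) at D180 in vehicle rats, and 5.77 to 6.49 (median 5.88), 5.83 to 6.99 (median 6.75), and 5.90 to 6.95 (median 6.34) in DQ-12 lungs. The changes were 0.20, 0.58, and -0.09 (adjusted p = 0.702, 0.307, and 0.885), with 95% intervals of -0.38 to 0.77, 0.01 to 1.16, and -0.67 to 0.48. The second Slc7a2 probe had changes of -0.20, 0.90, and 0.67 (adjusted p = 0.711, 0.0773, and 0.112 over all probes), opposite in sign at D1 and D180.

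**Figure D3:**
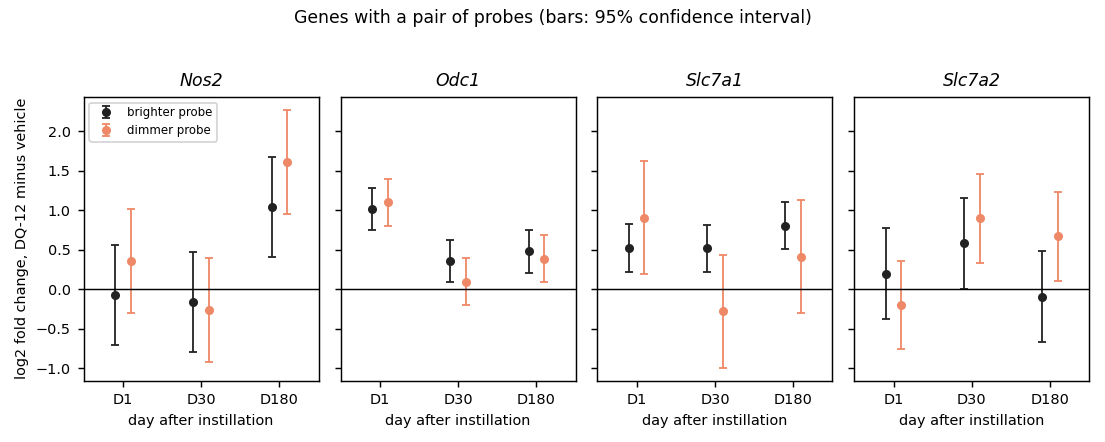
Change (log2 fold change of DQ-12 over vehicle rats, with the 95% confidence interval) by day for the 4 genes with a pair of probes, the brighter probe in black and the dimmer in orange. For Odc1 the probes lie together at D1 (an FC of 2.02 and 2.14), whereas for Slc7a1 at D30 (0.52 and -0.28) and Slc7a2 at D180 (-0.09 and 0.67) they fall on opposite sides of 0.

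RefSeq's table of sequences around transcript starts (build GRCr8, 250 bases before to 50 after the start) held 5 of the 9 genes: Nos3, Ass1, Asl, Odc1, and Slc7a1. They were searched on both strands for the E-box CACGTG, AP-1 TGANTCA, CRE TGACGTCA, STAT (TTC and GAA with 3 or 4 free bases between them), NF-kB (GGG, 3 free bases, TTCC), and C/EBP TTGCNNAA, where N is any base. No match to any of these motifs was found in the 5 windows. Among all 33469 windows, the share with a match ran from 1.83% for the CRE to 10.6% for C/EBP.

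The genes around the 9 were taken as 6 lists from general knowledge, 47 genes in all, and all 47 were tested. Of these, 2 were DEGs at D1, 1 at D30, and 4 at D180, beside 3.12, 1.06, and 3.67% of all genes. By the adjusted p alone, 8 rose and 4 fell at D1, 6 rose and 1 fell at D30, and 10 rose and 9 fell at D180, beside 7.69, 2.78, and 7.94% of all genes that rose and 8.76, 1.27, and 9.11% that fell. With scan date as a fixed block, 4 of the 7 changes at D30 and 13 of the 19 at D180 still passed, and with slide 4 at D30. At D1 either block rests on 1 vehicle rat, and at D180 slide rests on 1 rat of each arm. Passing or not passing there says little. None of the 12 changes at D1 turned sign with either block. The median change of the 47 genes was 0.09, -0.07, and 0.06.

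Of 7 other arginine or ornithine transporters, Slc7a3, a cationic amino acid transporter like Slc7a1, rose at D30 by 1.88 ± 0.37 (adjusted p = 0.00184) and at D180 by 2.75 ± 0.37 (adjusted p = 1.62e-06). Its mean was 3.68 ± 0.61 (SD, n = 6) in vehicle rats and 5.56 ± 0.51 in DQ-12 rats at D30, and 4.07 ± 1.01 and 6.82 ± 0.11 at D180. It was well above background in 1 of 6 vehicle rats at D30 and 3 of 6 at D180, and in all DQ-12 rats of both days. At both days each DQ-12 rat exceeded every vehicle rat, as in the higher direction for 1.83 and 3.85% of all genes. With normexp background correction the changes of Slc7a3 were 0.52 and 1.12, so that it was a DEG at D180 but not at D30.

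Slc7a7, part of the exporter of cationic amino acids found in macrophages, was 6.87 ± 0.24 in vehicle rats and 8.60 ± 0.48 in DQ-12 rats at D180, a rise of 1.73 ± 0.21 (adjusted p = 3.62e-07). It had already risen by 0.88 at D1 (adjusted p = 0.00397) and by 0.79 at D30 (adjusted p = 0.0299). Slc7a6, the partner of a similar exchanger, rose by 0.50 at D180. The mitochondrial carrier Slc25a29 fell by 0.66 at D1 and by 0.64 at D180.

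The list of 10 genes for NO synthesis held regulators and a further NO synthase, Nos1, which passed the adjusted p at no day. Among these 10, Gch1, the first enzyme of tetrahydrobiopterin synthesis and so of the cofactor of all NO synthases, rose at all 3 days. It was 9.12 ± 0.22 in vehicle rats and 10.45 ± 0.37 in DQ-12 rats at D1, and 9.08 ± 0.19 and 10.44 ± 0.30 at D180. Each DQ-12 rat was above every vehicle rat at the 3 days, as in the higher direction for 5.27, 1.83, and 3.85% of all genes. The changes of Gch1 were 1.33 at D1 (adjusted p = 5.15e-07), 0.92 at D30 (adjusted p = 0.000531), and 1.36 at D180 (adjusted p = 2.58e-07). With scan date as a fixed block, which at D1 rests on 1 vehicle rat, the change of Gch1 at that day was 1.13. The enzymes that follow it also rose, Pts by 0.35 at D1 and 0.34 at D180, and Spr by 0.48 at D1.

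Ddah1 and Ddah2, which break down methylated arginines that inhibit the NO synthases, were lower at different days. Ddah1 fell by 0.37 at D1 (adjusted p = 0.0227) and Ddah2 fell by 0.36 at D180 (adjusted p = 0.0307). With arrays scaled by the 75th percentile, neither passed (-0.30 and -0.32, adjusted p = 0.123 and 0.106). Nostrin, which binds Nos3 and moves it within the cell, fell by 0.80 at D180 (adjusted p = 0.0132, with 1 missing value among DQ-12 rats), but in the deposited log2 values the change was -0.48 and did not pass (adjusted p = 0.259).

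Of 5 genes that act downstream of NO, 4 were lower at D180, beside 9.11% of all genes. These were the soluble guanylate cyclase subunits Gucy1a1 (-0.86), Gucy1a2 (-0.76), and Gucy1b1 (-1.11) and the cyclic GMP phosphodiesterase Pde5a (-0.995). Gucy1a1 was also lower at D1 (-0.34, adjusted p = 0.0496) and D30 (-0.44, adjusted p = 0.0335), both near the threshold. With arrays scaled by the 75th percentile the change at D1 was -0.33 and did not pass (adjusted p = 0.0508). That at D30 still passed (adjusted p = 0.0338), but with scan date as a fixed block it was -0.27 and did not (adjusted p = 0.479). At D180 Gucy1b1 was 9.49 ± 0.28 in vehicle rats and 8.38 ± 0.16 in DQ-12 rats. All 6 DQ-12 rats were below every vehicle rat, as in the lower direction for 3.49% of all genes. Gucy1b1 was the only DEG of the 4 (adjusted p = 2.77e-08). With normexp background correction its change was -0.98, just short of an FC of 2. Endothelial, alveolar type 1, and smooth muscle and fibroblast markers were lower at that day, as given for Nos3. Their part was not tested.

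Of 14 genes of polyamine metabolism, none was a DEG. At D1, spermidine synthase Srm rose by 0.73 (adjusted p = 0.00108) and the polyamine oxidase Paox by 0.47 (adjusted p = 0.000718), whereas the antizyme inhibitor Azin1, which spares Odc1 from breakdown, fell by 0.61 (adjusted p = 0.000800). Paox was also higher at D30 (0.33) and D180 (0.64). Sat1 and Dohh rose at D180 by 0.43 and 0.36.

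In the ornithine, proline, and creatine list, Pycr1, which makes the last step of proline synthesis, was a DEG at D1. It was 7.21 ± 0.24 in vehicle rats and 8.90 ± 0.46 in DQ-12 rats, a rise of 1.69 ± 0.20 (adjusted p = 1.54e-07), and it also rose by 0.73 at D30 and by 0.80 at D180. With scan date as a fixed block, which at D1 rests on 1 vehicle rat, the change of Pycr1 at that day was 1.54. Aldh18a1, which makes an earlier step from glutamate, rose by 0.38, 0.54, and 0.42. Gatm, which uses arginine for creatine, fell by 0.54 at D180 (adjusted p = 0.00808). With scan date as a fixed block its change was -0.31 and did not pass (adjusted p = 0.146). With slide, where a single slide carries the estimate at D180, it was 0.27, opposite in sign. Of the other urea cycle genes Nags, Cps1, and Otc, Nags fell by 0.56 at D180 (adjusted p = 0.00513) and the others passed at no day.

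**Figure D4:**
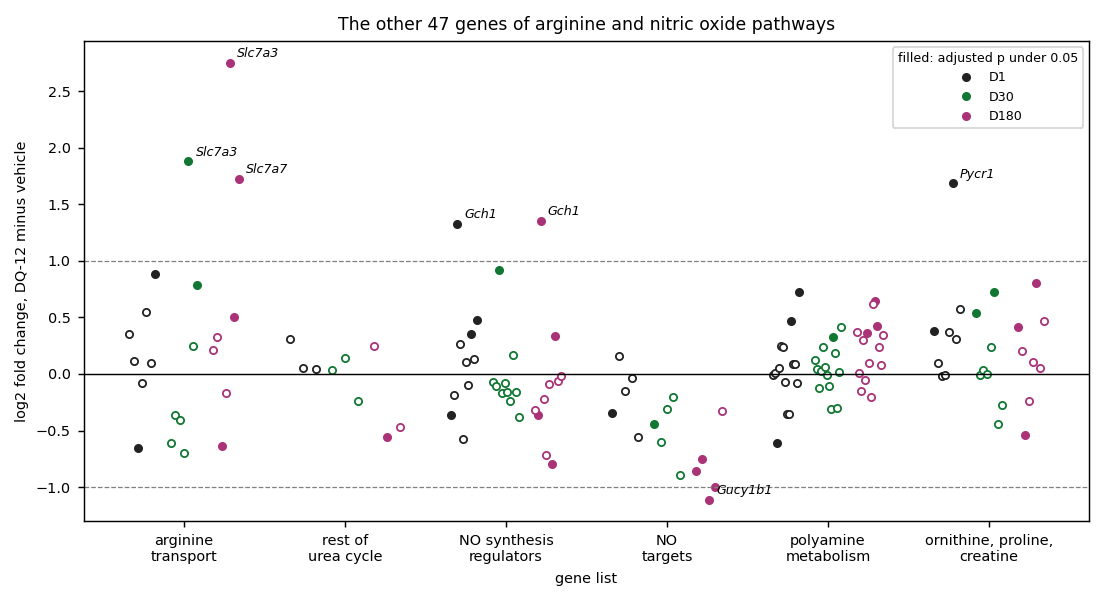
Change (log2 fold change of DQ-12 over vehicle rats, n = 6 against 6) of the 47 other genes of arginine and NO pathways, in 6 lists along the horizontal axis, with D1, D30, and D180 in black, green, and purple; filled points have an adjusted p under 0.05, dashed lines mark an FC of 2 and DEGs are named. Slc7a3 at D180 (2.75) is the highest point and Gucy1b1 at D180 (-1.11) the lowest.

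For each of the 3 DEGs, the genes whose 6 group means, after centering, lay nearest were listed among 6697 genes that passed the adjusted p in at least 1 comparison, by the root mean square difference over the 6 groups. This is a description of the pattern. Nearest to Odc1 were LOC498265 (0.054), Ano9 (0.055), and Gmnn (0.060). Nearest to Arg1 were Tnf (0.12), the gene of tumor necrosis factor, Pxt1 (0.14), and Noxo1 (0.15), which organizes an NADPH oxidase. Nearest to Nos2 were Tvp23a (0.088), LOC103691883 (0.11), and RT1-Db2 (0.11). Tnf, as an example, changed by 0.51, 1.34, and 1.31 at D1, D30, and D180.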

How the data were processed

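The authors scanned 1 single-color Agilent array per rat and ran Feature Extraction 12.0.1.1, per the file headers and the submitters' notes. The deposited array files hold the intensity of each spot, as measured and after background subtraction. The authors' deposited log2 table matched the log2 background-subtracted intensity after subtraction of each array's 75th percentile and centering of each probe (r = 0.99997, with a median absolute difference of 0.00177 across 1641055 values). It served as an alternative, since quantile normalization is the study's method.

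Here, the background-subtracted intensity of 58717 spots was log2 transformed. Outlier spots, 232 to 596 on an array, were dropped before averaging over the spots of each of 45598 probes. Probes above the 95th percentile of 308 negative controls on at least 6 arrays (41767) were quantile normalized, and the brightest probe stood for each gene name. A model of 6 group means was fitted in limma 3.58.1 (R 4.3.3) with Benjamini–Hochberg adjustment per comparison. Differences between days were interactions in the same fit. Single probes were tested over all kept probes. The number of arrays limits the precision. The study corrected for a batch that its text does not name. Here slide (19) and scan date (11) were alternatives, as were scaling, background correction, filters, probe summary, moderation, thresholds, the replicate number, and leaving out each rat. The 9 genes, the gene lists, and the alternatives were chosen with earlier results of these data known. All 9 genes and their probes were named, with the pathway genes called at any day and the 3 nearest genes of each DEG. Other pathway genes past the adjusted p were also named. The script was tested on simulated data. Figures used Python 3.11.15 and matplotlib 3.10.9. A rat genome sequence was not used here.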

Additional observations from a re-analysis of the deposited data

Results flagged for a closer look

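The change of Arg1 differed between days by a test of the difference itself. The change at D30 exceeded that at D1 by 1.14 on the log2 scale (interaction in limma, adjusted p = 0.0292). It was the only such difference among the 9 genes and the 3 pairs of days at that threshold. The call was lost with scan date or slide as a fixed block (1.54 and 1.51, adjusted p = 0.211 and 0.311), with scan date as a random block (1.18, adjusted p = 0.0961), and with the replicate number as a block (1.14, adjusted p = 0.0670). It was also lost without vehicle replicate 2 or 5 or DQ-12 replicate 4 of D1, and without vehicle replicate 2, 5, or 6 or DQ-12 replicate 2 or 4 of D30. Over all 24 rats of both days left out in turn, the difference was 0.98 to 1.29 (adjusted p = 0.0120 to 0.0621). No rat stood apart from the others of its group by Dixon's ratio (critical value 0.625 for 6 rats) in any of the 54 combinations of a gene and a group.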

How the results depend on the processing

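Changes of the 9 genes that passed the adjusted p above were estimated again under the alternatives that kept every rat. This gave 142 estimates, which repeat the same few changes on the same rats. Of these estimates, 114 stayed past the adjusted p and 28 did not, and none changed sign. The changes of Odc1 at D1 and of Arg1 and Ass1 at D30 stayed past the adjusted p in all of these alternatives. The causes of the changes below were not tested. For dim genes, the share of arrays well above background limits what can be seen, and Nos2 could not be tested where each array of a group had to be well above background.

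Counts of DEGs among the 9 genes moved as follows. At D1 (1), the count was 0 with 75th percentile scaling and with normexp background correction, and 2 without the fold threshold. At D30 (1), it was 2 at a fold of 1.5 and 3 without a fold threshold. At D180 (2), it was 1 with 75th percentile scaling, the deposited log2 values, normexp, the filter on probes well above background, or each time point alone, 0 with slide as a fixed block, 3 at a fold of 1.5, and 6 without a fold threshold. The number of genes whose change differed between D1 and D30 (1) was 0 with slide or scan date as a fixed block, with scan date as a random block, and with the replicate number as a block. Replicate numbers are not said to pair the rats. Deviations of rats with the same number correlated at over 0.1 in 1, 2, and 3 of 6 pairs at D1, D30, and D180. Rats of different numbers were not compared, so this cannot decide on pairing. With the replicate number as a block, Nos3 at D180 (adjusted p = 0.0904) and Slc7a1 at D30 (adjusted p = 0.0605) no longer passed.

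Among the 47 other pathway genes, the count of 2 at D1 was 1 with slide as a fixed block, 0 with scan date, 6 at a fold of 1.5, and 12 without a fold threshold. That of 1 at D30 was 0 with normexp, 2 and 3 with slide and scan date as fixed blocks, and 4 and 7 at the looser thresholds. That of 4 at D180 was 0 with slide as a fixed block, and 11 and 19 at the looser thresholds. Of the changes of these 47 genes past the adjusted p, 2 at D180 turned sign with slide as a fixed block (Gatm and Pts). So did 1 at D1 with the median of the probes of a gene. At D1, slide and scan date as fixed blocks each rest on 1 vehicle rat.

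With each rat left out in turn, the 9 genes gave 0 to 1 DEGs at D1, 1 to 2 at D30, 1 to 2 at D180, and 0 to 1 differences between D1 and D30. The other pathway genes gave 1 to 2 at D30, 2 of them without vehicle replicate 3 of D30 (Prkg1) and without DQ-12 replicate 4 of D30 (Gch1).

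Only changes that had not passed the adjusted p turned sign. With normexp these were Nos2 (0.017) and Nos3 (0.00073) at D1. With the median of the probes of a gene they were Nos2 at D1 (0.14) and Slc7a2 at D1 (-0.0011) and D180 (0.29). With slide as a fixed block they were Arg1 (-0.061), Arg2 (0.44), Nos3 (0.17), and Slc7a2 (-0.15) at D1, Nos2 at D30 (0.19), and Arg2 (-0.035), Ass1 (0.29), and Slc7a2 (0.45) at D180. With scan date as a fixed block they were Arg1 (-0.085), Arg2 (0.66), Nos2 (0.068), Nos3 (0.20), and Slc7a2 (-0.12) at D1, Nos2 at D30 (0.29), and Slc7a2 at D180 (0.25). With slide and scan date as random blocks, respectively, they were Arg2 (0.13 and 0.12) and Nos3 (0.049 and 0.053) at D1 and Nos2 at D30 (0.041 and 0.11). With a rat left out, the changes ran over 0 for Arg2 (-0.25 to 0.082), Nos2 (-0.17 to 0.094), Nos3 (-0.11 to 0.053), and Slc7a2 (-0.036 to 0.31) at D1, for Nos2 at D30 (-0.34 to 0.045), and for Slc7a2 at D180 (-0.24 to 0.029).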
